A study of Mus musculus with 3 samples.

Results

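The 8 genes that encode the hormones of the islet, Ins1, Ins2, Iapp, Gcg, Sst, Ppy, Pyy and Ghrl, were examined for H3K4me1 in cytokine treated mouse islets. They were taken by name from the GENCODE M1 annotation of mm9, where they are 8 of 22350 protein-coding genes on chromosomes 1 to 19 and X. An H3K4me1 enriched region was counted for a gene when it overlapped the gene or when its nearest edge lay within 20 kb of any annotated transcriptional start site (TSS) of the gene. By this rule 19 of the 65709 regions in the list belonged to the hormone genes. Islets of CD1 mice aged 8 to 12 weeks, by the labels, were kept in RPMI for 4 days with TNFα at 0.16 ng/ml, Il-1β at 0.25 ng/ml and IFNγ at 1.6 ng/ml. The methods name the mice as ICR and give a narrower range of age. Chromatin was precipitated with an antibody to H3K4me1, and DNA from separate ChIP experiments was pooled into 1 library. There is no replicate, so no value below has an error between libraries and none was tested. The RNA-seq samples of untreated and cytokine treated islets were not analysed here. H3K4me1 of untreated islets was also not analysed, so none of the regions can be assigned to the cytokines.

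Islets hold several endocrine cell types, and each is defined by the hormone it secretes. In the mouse, insulin is encoded by a pair of genes, Ins2, which has the ancestral structure, and Ins1, a retrogene copied from it. β-cells secrete both insulins with amylin, the product of Iapp. Glucagon (Gcg) comes from α-cells, somatostatin (Sst) from δ-cells, pancreatic polypeptide (Ppy) from PP cells and ghrelin (Ghrl) from a rare cell type that is more frequent before birth, while peptide YY (Pyy) is made in islets and in the gut. β-cells are the most numerous of these cells. H3K4me1 is a histone mark of regulatory DNA, most used to locate enhancers, whether these are already driving transcription or only primed for it. Around active start sites it usually lies on the flanks, where trimethylation of the same lysine takes the centre.

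The sequence before the start site was read from mm9 for each gene, and 6 of the 8 are shown here because they hold the elements that hormone promoters are known for. Each run gives the 200 bases before the TSS of the reference transcript (the annotated transcript with the lowest number in its name), on the strand of the gene and from 5′ to 3′. Capitals mark 4 elements found on either strand: TATAAA (the TATA box), TAAT (the core bound by homeodomain factors such as Pdx1), CATCTG (the core of the insulin E-box, bound by Neurod1 with its partners) and TGACGTCA (the cAMP response element). Ins2 is at chr7:149865632-149865831, minus strand, and Ins1 at chr19:52338613-52338812, plus strand. Iapp is at chr6:142246743-142246942, plus strand. Gcg is at chr2:62321708-62321907, Sst at chr16:23890931-23891130 and Ppy at chr11:101962634-101962833, all on the minus strand.
Ins2: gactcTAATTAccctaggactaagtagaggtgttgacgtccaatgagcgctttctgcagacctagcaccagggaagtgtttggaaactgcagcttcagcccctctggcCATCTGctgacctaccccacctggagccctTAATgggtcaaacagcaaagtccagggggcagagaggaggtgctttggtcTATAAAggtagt
Ins1: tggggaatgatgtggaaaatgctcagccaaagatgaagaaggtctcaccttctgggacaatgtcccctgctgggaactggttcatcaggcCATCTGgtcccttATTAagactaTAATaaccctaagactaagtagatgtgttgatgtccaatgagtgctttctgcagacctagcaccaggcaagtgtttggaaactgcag
Iapp: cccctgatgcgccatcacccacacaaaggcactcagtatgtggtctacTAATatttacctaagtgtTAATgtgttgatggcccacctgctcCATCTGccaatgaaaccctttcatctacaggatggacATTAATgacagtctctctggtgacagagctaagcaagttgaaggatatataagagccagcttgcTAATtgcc
Gcg: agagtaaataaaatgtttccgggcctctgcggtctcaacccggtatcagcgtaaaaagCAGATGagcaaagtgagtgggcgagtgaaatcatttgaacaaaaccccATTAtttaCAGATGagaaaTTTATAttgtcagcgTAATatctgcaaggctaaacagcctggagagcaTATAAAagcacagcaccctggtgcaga
Sst: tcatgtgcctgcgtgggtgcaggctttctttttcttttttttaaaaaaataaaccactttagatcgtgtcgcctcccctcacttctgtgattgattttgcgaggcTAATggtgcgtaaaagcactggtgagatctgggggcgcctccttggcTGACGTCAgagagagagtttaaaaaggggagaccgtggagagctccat
Ppy: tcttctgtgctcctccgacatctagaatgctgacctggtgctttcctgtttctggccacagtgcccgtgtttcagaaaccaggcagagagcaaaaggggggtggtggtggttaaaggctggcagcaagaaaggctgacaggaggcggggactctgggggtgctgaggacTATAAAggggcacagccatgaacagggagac

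Of the hormone genes, Ins2 alone had a TSS inside an H3K4me1 region and Gcg alone had no region. At least 1 region was found at 7 of 8 genes, near the share of 76.4% of all protein-coding genes. A TSS lay inside a region at 1 of 8 genes, whereas 39.1% of all protein-coding genes had a TSS inside a region. A region came within 2 kb of a TSS at 3 genes (Ins2, Ins1 and Ppy), against 62.0% of all protein-coding genes. Most hormone promoters are poor in CpG, and among all genes with such promoters (a ratio of observed to expected CpG under 0.5) these shares were lower, 21.9% with a TSS inside a region and 32.7% with a region within 2 kb. Of the 7 hormone genes of this kind, 1 (14.3%) and 3 (42.9%) were in these classes, so the lower share within 2 kb was not seen against that background. The median distance from a TSS to the nearest region edge was 3745 bp over the 8 genes and 563 bp over all genes. In bins of 200 bp from the reference TSS, regions covered 11.9% of the bins within 2 kb of the 8 start sites and 26.7% of those of all genes. Without Ins2 the share of the other hormone genes within 2 kb was 5.71%. Between 2 and 20 kb the order turned, with 17.9% of the bins covered at the hormone genes and 10.2% at all genes. The higher share beyond 2 kb came largely with Ppy and Pyy, which share most of their surroundings. Without this pair the other 6 genes had 11.7% of the bins covered within 2 kb and 11.2% beyond.

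**Figure D1:**
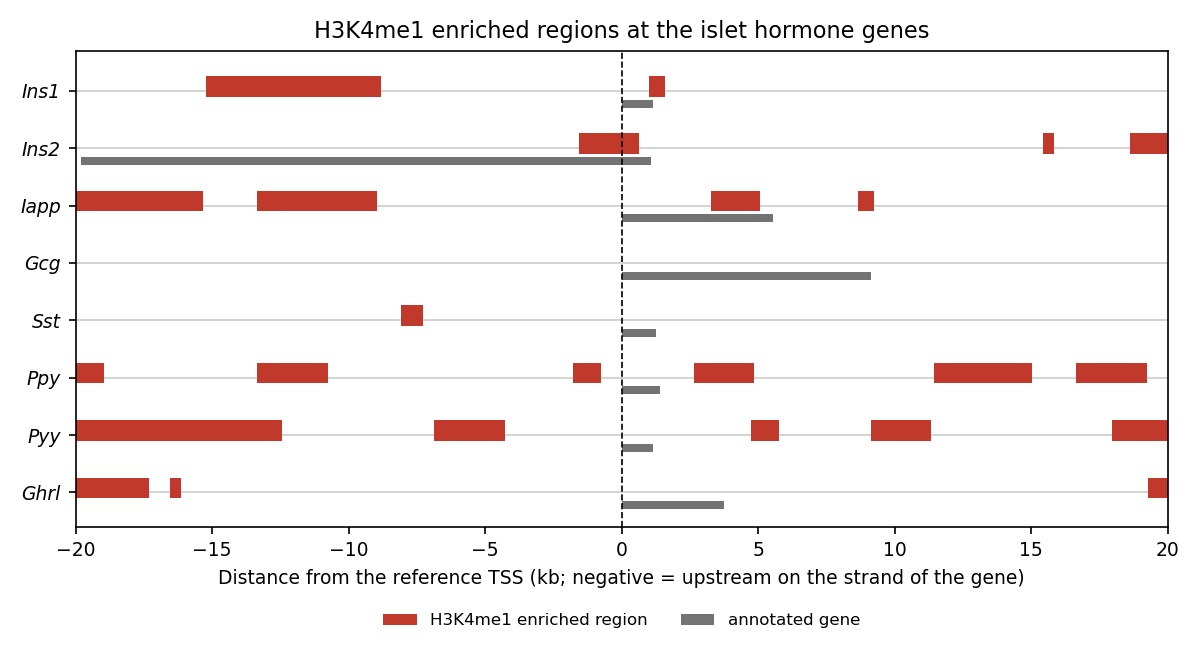
H3K4me1 enriched regions (red) and the extent of each hormone gene (grey) within 20 kb of the reference TSS of the 8 hormone genes, drawn to scale on the strand of each gene, with upstream distance in kb to the left of the dashed TSS line. A region crosses the line at Ins2 alone, the line of Gcg is empty, and regions that reach past 20 kb are drawn up to the edge.

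The 2 insulin genes differed at their start sites. Ins2 (chr7:149864561-149885415, minus strand) carried a region of 2.2 kb, chr7:149865001-149867200, that held 7 of its 8 annotated TSS positions. It reached 1569 bp upstream and 630 bp downstream of the reference TSS and overlapped coding sequence and UTR. The TSS left outside belongs to a transcript annotated to begin at -19784 bp from the reference TSS, and no region lay within 2 kb of that position. The other 2 regions of Ins2 began 15431 and 18631 bp downstream of the reference TSS, were 400 and 2400 bp wide, and lay in Igf2, the gene of insulin-like growth factor 2, and in the antisense transcript Igf2as. Ins1 (chr19:52338813-52339946, plus strand) had 1 annotated TSS and no region over it. A region of 600 bp, chr19:52339801-52340400, began 988 bp downstream, over the UTR at the end of the gene. A second one of 6.4 kb, chr19:52323601-52330000, lay between 15212 and 8813 bp upstream, outside annotated genes. The reference TSS of Ins1 thus fell in a gap of 9.8 kb between regions, close to the median of 10.6 kb over all gaps in the list.

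The promoters of Ins1 and Ins2 are close in sequence, so that the difference between them in H3K4me1 was set against their alignment. Of the 200 bases printed for Ins2, 195 aligned with the Ins1 locus without a gap, and 181 of these were identical (92.8%). The alignment began 92 bases before the annotated start of Ins1, and the base of Ins1 that corresponds to the TSS of Ins2 lies 108 bp after that start. The annotated start of Ins1 is therefore not at the same point of the shared sequence, and the run printed for Ins1 reaches further upstream than that of Ins2. Counted from the corresponding base, the next region downstream of Ins1 was 880 bp away. Close to the TSS, words that occur once in the genome were as frequent at both genes, but not over the loci. Within 500 bp of the TSS, 96.9% of the 32-base words were unique at Ins1 and 96.9% at Ins2. Over the whole locus 87.4% were unique at Ins1 and 94.96% at Ins2, and some bins of 200 bp with few unique words lay in the gap around the TSS of Ins1. The read length was not given in the sources used here, and 32 bases were taken as a lower bound for a short read.

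Iapp, which encodes amylin, is annotated at chr6:142246943-142252481 on the plus strand, inside the annotated gene Slco1a5, an organic anion transporter read from the other strand. It had 4 regions and none within 2 kb of its 2 TSS positions. Upstream were a region of 7.0 kb, chr6:142224601-142231600, and one of 4.4 kb, chr6:142233601-142238000, which ended 8943 bp before the reference TSS. A region of 1.8 kb, chr6:142250201-142252000, began 3258 bp downstream and overlapped the coding sequence of Iapp. The last, of 600 bp, lay past the end of the gene from 8658 to 9257 bp. Regions covered 11.5 kb, or 28.6% of the Iapp locus (the gene with 20 kb on each side of every TSS), which put it above 90.2% of all protein-coding genes by the covered percent. Both upstream regions lay in Slco1a5, in an exon and in an intron, and the list does not show which of the 2 genes they belong to.

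Gcg, which encodes glucagon and the glucagon-like peptides, had no region. Its position is chr2:62312587-62321707, minus strand, with 3 annotated TSS positions. The nearest region downstream, chr2:62294601-62296800, ended 21935 bp from the innermost of these, and the nearest upstream, chr2:62427401-62428400, was 105694 bp away. The gap between them measured 130.6 kb, and 95.3% of all gaps between neighbouring regions were shorter. Within 50 kb of a TSS, Gcg had 1 region, of 2.2 kb. Of the 32-base words within 2 kb of the reference TSS, 98.9% occurred once in the genome, and the locus held 0 unknown bases. In whole islets, a mark carried by few cells and a weak mark in many cells cannot be told apart, and the depth behind the list is unknown, so H3K4me1 at Gcg was not detected under this threshold and cannot be called absent from α-cells.

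Sst, which encodes somatostatin, had 1 region. The gene (chr16:23889667-23890930, minus strand) has 1 TSS, and the region, chr16:23898201-23899000, was 800 bp wide and lay 7271 to 8070 bp upstream, outside annotated genes. On the other side the list was empty for 47130 bp. The gap around the TSS, 54.4 kb, was longer than 86.0% of all gaps. Gcg and Sst thus lay in longer gaps than the other hormone genes, of which Ghrl had the longest at 35.4 kb.

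Ppy and Pyy, related genes of the neuropeptide Y family, lie side by side on the minus strand of chromosome 11, with 6513 bp between their reference TSS positions. Ppy is at chr11:101961244-101962633 and Pyy at chr11:101967990-101969146. Ppy had 6 regions and Pyy 5, and all 5 of Pyy were among those of Ppy, so the pair counts 6 distinct regions. The region nearest to a start site, chr11:101963401-101964400, lay between the genes. It was 1000 bp wide, and its near edge was 768 bp upstream of the reference TSS of Ppy and 4746 bp downstream of that of Pyy. The start of Ppy fell in a gap of 3.4 kb, the shortest among the 7 start sites outside a region, since a region of 2.2 kb began 2633 bp downstream of it. At Pyy the nearest upstream edge was 4255 bp from the reference TSS, at chr11:101973401-101976000 over the pseudogene Gm11584. The nearest downstream edge was 4286 bp from its second annotated TSS, which lies 460 bp downstream of the reference TSS. A region of 11.6 kb, chr11:101981601-101993200, lay further upstream of both genes over the pseudogene Gm11585. It was the widest at any hormone gene and the only 1 of the 19 above 10 kb, a width that 2.01% of all regions passed. The remaining 2 regions, of 3.6 and 2.6 kb, overlapped Mpp2, the gene of a membrane scaffold protein. Regions covered 32.6% of the Ppy locus and 39.2% of the Pyy locus, which placed Pyy at the 96.0 percentile of all protein-coding genes and Ppy at the 92.9 percentile.

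The bin of 200 bp at the near edge of the region upstream of Ppy, chr11:101963401-101963600, and of the single region of Sst, chr16:23898201-23898400, are printed on the strand of each gene to show sequence under the region nearest to each start site. The bin of Ppy had 54.0% G and C and 1 CpG, and that of Sst had 54.0% G and C and 7 CpG.
Ppy upstream region: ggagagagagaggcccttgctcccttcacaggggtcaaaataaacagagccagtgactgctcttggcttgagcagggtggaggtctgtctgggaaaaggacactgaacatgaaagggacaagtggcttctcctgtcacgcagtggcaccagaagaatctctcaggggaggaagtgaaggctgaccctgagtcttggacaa
Sst upstream region: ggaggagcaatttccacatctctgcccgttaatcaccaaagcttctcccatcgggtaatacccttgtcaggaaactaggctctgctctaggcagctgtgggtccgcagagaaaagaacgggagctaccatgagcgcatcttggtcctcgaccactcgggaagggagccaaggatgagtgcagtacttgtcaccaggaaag

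Ghrl, which encodes ghrelin, is annotated at chr6:113666113-113669874 on the minus strand. Its 3 regions were all near the limit of the window. The near edge of a region of 400 bp was 16127 bp upstream of the reference TSS and that of a region of 3.8 kb 17327 bp upstream, both in Sec13, a gene of the vesicle coat, with coding sequence under each. The third, of 2.2 kb, was 18823 bp downstream of the nearest TSS, in an intron of Tatdn2. With 10 kb in place of 20 kb, Ghrl had 0 regions. The 3 regions lay in other genes.

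The 8 genes held 24 pairs of a gene and a region, of which 11 lay upstream of the reference TSS, 12 downstream and 1 over it. Of the 19 distinct regions, 3 overlapped a hormone gene, at Ins1, Ins2 and Iapp, and 4 lay outside all annotated genes. Their median width was 2200 bp, with a range from 400 to 11600 bp, against 1200 bp over the whole list. The median number of regions was 3 at the hormone genes and 2 at all protein-coding genes. Regions covered 7.0 kb at Ins1, 4.16 kb at Ins2, 11.5 kb at Iapp, 0 kb at Gcg, 0.8 kb at Sst, 13.03 kb at Ppy, 15.9 kb at Pyy and 4.25 kb at Ghrl. Pyy, Ppy and Iapp stood at the top of this order and Sst and Gcg at the bottom, while Ins2, the gene with the marked start site, stood in the middle next to Ghrl. The median over the 8 genes was 5.63 kb and the median over all protein-coding genes was 4.0 kb, with quartiles of 0.4 and 9.4 kb. Covered length and marking of the start site thus ordered the genes differently: Pyy had the most covered kb and no region within 2 kb, and Ins2 had 4.16 kb with its start site inside a region.

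**Figure D2:**
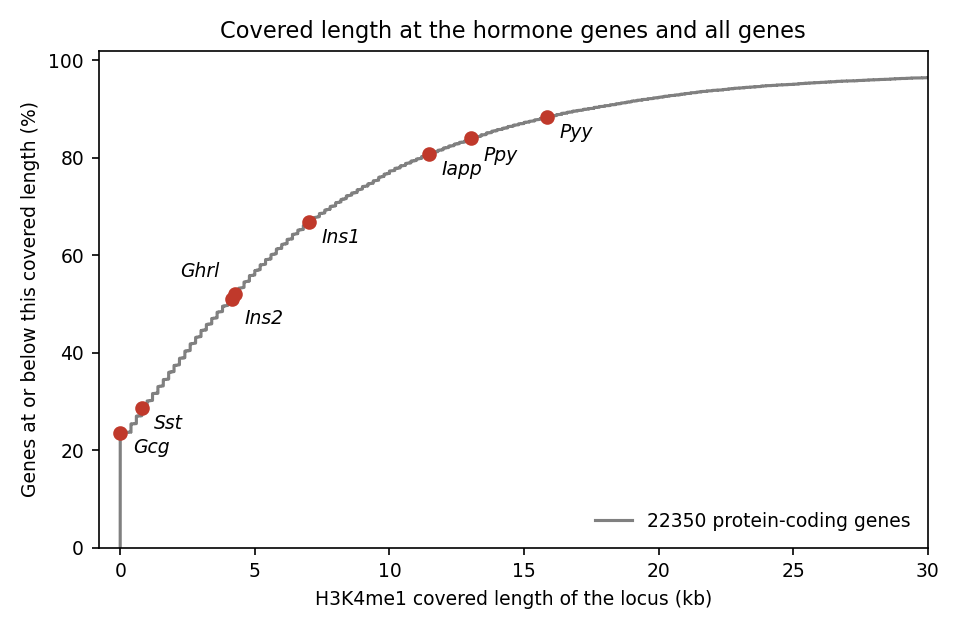
Covered length of the locus in kb (x axis) against the percent of 22350 protein-coding genes at or below it (y axis, grey line), with the 8 hormone genes as red points on the line. Gcg and Sst sit at the low end of the line, at 0 and 0.8 kb, Ins2 and Ghrl near its middle at 4.16 and 4.25 kb, and Iapp, Ppy and Pyy to the right of these, from 11.5 to 15.9 kb.

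Genes of the same secretory pathway were placed in the same classes, beside the 39.1% of all protein-coding genes with a TSS inside a region and the 62.0% with a region within 2 kb. The transcription factors that bind hormone promoters numbered 12, and 4 of them, Pax6, Foxa2 and Rfx6 included, had a TSS inside a region (33.3%), near the share of all genes. A region came within 2 kb of 10 of the 12 (83.3%), and at Isl1 the nearest edge was just beyond, at 2105 bp. Their median covered length was 14.7 kb, with 33.0 kb at Pax6. Of 12 genes of prohormone processing and the secretory granule, 2 (Scg5 and Slc30a8, 16.7%) had a TSS inside a region, and all 12 had a region within 2 kb of a TSS. Their median covered length was 20.2 kb. Pcsk2, the prohormone convertase that acts on proglucagon and proinsulin, had 125.0 kb, and Cpe, the carboxypeptidase of the granule, 74.6 kb, although both loci are longer than those of the hormones. Pcsk1, the other convertase, had 8.4 kb, and Pcsk1n, on chromosome X, had 0.8 kb. Beside these 12 genes, the hormone genes had 1 of 8 start sites in a region and 3 of 8 with a region within 2 kb. Isl1, Rfx6, Scg5 and Slc30a8 were named after their values were seen.

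Among receptors of the islet hormones, a TSS lay inside a region at 15 of 18 (83.3%), against 39.1% of all genes. A region came within 2 kb of 16 (88.9%), against 62.0%. With regions of at least 1000 bp, a TSS lay inside a region at 11 of the 18, against 35.7% of all genes. The list counts Ramp1, Ramp2 and Ramp3 as receptor components, each with a TSS inside a region. Glp1r, the receptor of glucagon-like peptide 1, had 31.4 kb covered, and Sstr3, a somatostatin receptor, had 22.0 kb. The 3 receptor genes without a marked start site were Npy2r with 0.4 kb, Npy5r with 0.8 kb and Calcr, a component of the amylin receptors, with 0 kb. The median covered length of the 18 receptors was 4.9 kb, beside 5.63 kb at the hormone genes, with a TSS inside a region at 15 of 18 receptors and 1 of 8 hormones. Of 30 peptide hormone genes of other tissues, 6 (20%) had a TSS inside a region, or 3 with regions of at least 1000 bp. A region came within 2 kb of 12 (40%). Both shares were below those of all genes, as were the 1 of 8 (12.5%) and 3 of 8 (37.5%) of the islet hormones. Their median covered length was 3.1 kb, and 5 of them, Prl, Fshb, Vip, Pmch and Gnrh1, named after their values were seen, had no region. Over all protein-coding genes 5284 of 22350 had none, a larger share. Gast, the gene of gastrin, had the most at 20.7 kb.

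**Figure D3:**
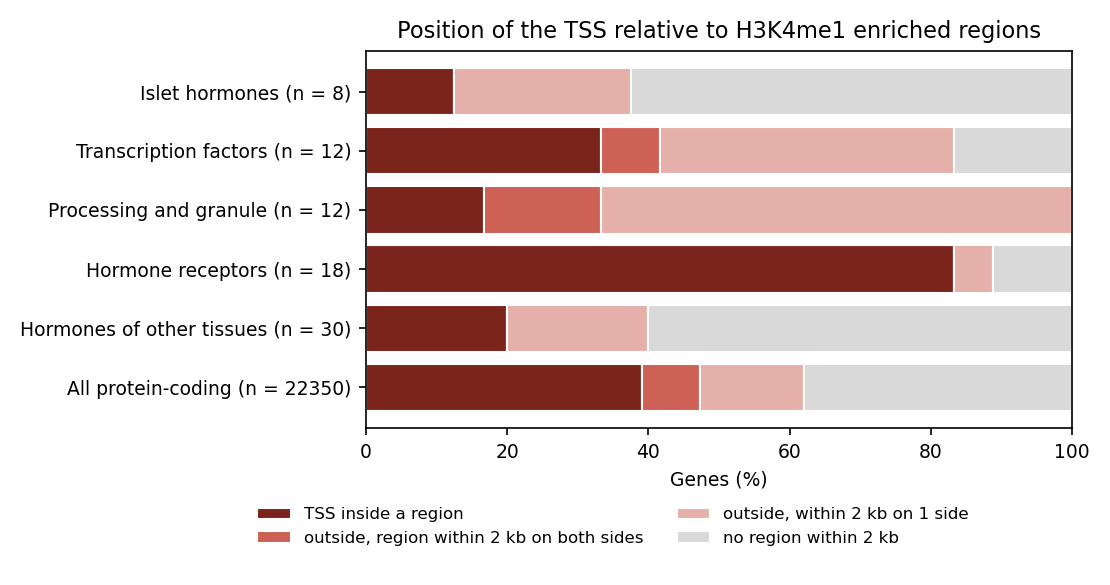
Percent of genes (x axis) in each of 4 classes of TSS position, for the islet hormone genes, 4 lists of related genes and all protein-coding genes. The grey share with no region within 2 kb is 62.5% at the islet hormones, 38.0% at all protein-coding genes and absent at the 12 processing and granule genes.

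**Figure D4:**
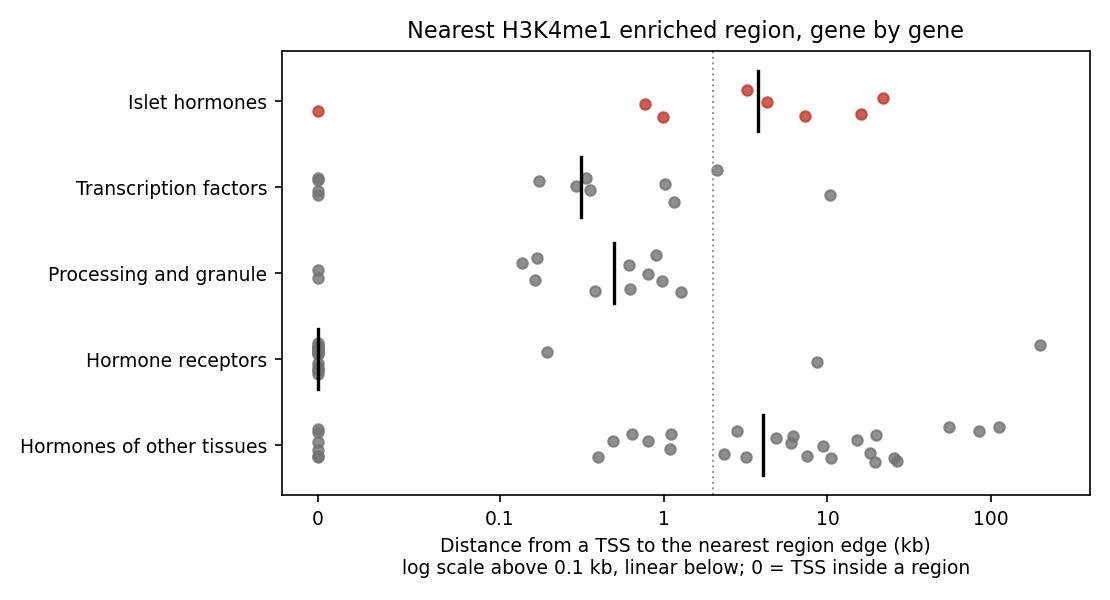
Distance in kb from a TSS to the nearest edge of a region (x axis, log scale above 0.1 kb and linear below) for each gene of 5 lists; points are genes, black bars medians, and the dotted line marks 2 kb. The median is 3745 bp at the islet hormones, 314 bp at the transcription factors, 497 bp at the processing and granule genes and 4010 bp at the hormones of other tissues.

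Most hormone promoters were poor in CpG, a feature that the choice of genes did not use. Over the 300 bases from 250 before to 50 after the reference TSS, 7 of the 8 had fewer than 0.5 of the CpG expected from their base composition, against 46.6% of all protein-coding genes, and Ins1 had 0 CpG. The ratio of observed to expected CpG was 0.144 at Ins2, 0.151 at Ghrl, 0.175 at Ppy, 0.274 at Iapp, 0.290 at Pyy and 0.357 at Gcg, whereas Sst stood apart at 0.707. The median over all protein-coding genes was 0.549. Over all genes, a TSS lay inside a region at 21.9% of the genes with a ratio under 0.5 and at 54.2% of those with 0.5 or more. Among genes with a ratio under 0.5, 32.7% had a region within 2 kb of a TSS. With 3 of 7, the hormone genes of this kind were above the share within 2 kb, and with 1 of 7 below the share with a TSS inside a region, each by less than 1 gene. Sst, the member with the higher ratio, had neither.

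Elements in the 200 bases before the TSS were counted on both strands, and a match says only that these letters are present. TATAAA was found at Ins2, Gcg and Ppy and in 10.02% of all promoters of the same length. Only these exact letters were counted, so other forms of the TATA box were not searched. CATCTG was found at Ins1, Ins2, Iapp and Gcg, against 9.75% of all promoters, and in the runs above it lies 92 bases before the TSS of Ins2 and 110 bases before that of Ins1. The copy of Ins2 lies inside the stretch aligned between the 2 genes and that of Ins1 outside it, so the 2 copies do not correspond. TAAT was found at 5 genes (Ins1, Ins2, Iapp, Gcg and Sst), against 43.2%. TGACGTCA was found at Sst alone, 48 bases before its TSS, against 1.86%. TGCTGAC, part of the element bound by Maf factors, was found at Ins2 and Ppy, against 2.83%, and at Ins2 it overlaps CATCTG. The bases of Ins1 that correspond to TATAAA and TGCTGAC of Ins2 lie after the annotated start of Ins1, outside the window searched, so no match for these elements at Ins1 says nothing of that stretch. Sites of factors that act downstream of the applied cytokines were searched too: TTCNNNGAA, the STAT site, was found at none of the 8 (5.32% of all promoters), the NF-κB site at none (6.57%), and GAAANNGAA, a part of the interferon response element, at Sst alone (5.84%). TTCNNNGAA and GAAANNGAA can overlap. Ins2, Ins1, Iapp and Gcg all held CATCTG and TAAT, and a relation of these elements to the regions was not tested.

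The share of 32-base words that occur once in the genome was high at all 8 start sites. Within 2 kb of the reference TSS, between 97.4% (Pyy) and 99.6% (Sst) of the words occurred once in the genome. Over the whole locus the share was lowest at Iapp, 79.4%, and at Ins1, 87.4%, and between 90.1% and 95.7% at the other 6. Bins of 200 bp were compared, a choice made after the data were seen. Regions covered 9 of 101 bins in which fewer than 50% of the words were unique and 265 of 1492 other bins (8.91% against 17.8%). Ppy and Pyy share most of their surroundings, so much of the same sequence is counted for both genes. Without Iapp the counts were 9 of 64 and 208 of 1330 (14.1% against 15.6%), and 6 of these 9 bins were those of Pyy. At Iapp they were 0 of 37 and 57 of 162, and bins with few unique words lay in the gap around its TSS and in the gap between its 2 upstream regions. At Ins1 they were 2 of 22 and 33 of 177, at Ppy 1 of 6 and 63 of 193, and at Pyy 6 of 11 and 70 of 188. Pyy alone had the higher share in bins with few unique words. At Gcg, 191 bins had 50% or more unique words and 8 had fewer, and none held a region. The part of repeated sequence in the gaps of Iapp was not tested.

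Markers of the other cells that isolated islets can hold were measured in the same way, again beside the 39.1% of all genes with a TSS inside a region. A TSS lay inside a region at 0 of 7 acinar genes, 5 of 5 duct genes, 4 of 5 endothelial genes, 1 of 6 leukocyte genes (Cd68) and 2 of 5 stromal genes (Col1a1 and Pdgfra), and at 3 of 10 genes of tissues outside the pancreas (Gfap, Mbp and Cdx2), the single genes being named after their values were seen. Some of these counts moved with the settings, while the acinar and leukocyte counts did not. With the reference TSS alone the duct count was 2 of 5 and the stromal count 1 of 5. With TSS of protein-coding transcripts the stromal count was also 1 of 5. The share of all genes was 31.3% with the reference TSS alone and 36.2% with TSS of protein-coding transcripts. With regions of at least 1000 bp the endothelial count was 2 of 5 and that of tissues outside the pancreas 1 of 10. The share of all genes was then 35.7%. The endocrine transcription factors, with 4 of 12 start sites in a region, had a median covered length of 14.7 kb, against 0.8 kb at the acinar genes, 0.3 kb at the leukocyte genes and 20.4 kb at the duct genes. The part that other cells of the islet take in the regions at the hormone genes was not tested.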

How the data were processed

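H3K4me1 ChIP-seq of 1 pooled library of cytokine treated islets was used. The deposited file holds the position of each enriched region on mm9 and nothing else, so no count, score or p-value was available. The authors mapped reads with bowtie2 (version 2.2.1 in the submitters' processing notes) and called regions with ChromHMM, whose settings are not given in the sources used here. The methods also describe a merge with regions of untreated islets and a filter on low enrichment, and do not say whether this list precedes them. The depth is unknown, and region edges fall on a grid of 200 bp.

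Positions were counted from 1 and set against the mm9 genome and GENCODE M1. None of 65652 regions on chromosomes of this reference ran past an end. Covered kb are the bases of a locus inside regions. Each gene fell in 1 of 4 classes: a TSS inside a region, a region within 2 kb on both sides or on 1 side, or none. The rule for naming took all 8 genes, neighbours under a region, up to 4 genes of each list by the most and the fewest covered kb, and genes with no TSS in a region where 5 or fewer were counted. Some genes of the lists are not reported by name here. The genes and lists were chosen with earlier results of these data known. With 1 library no test was made, and percentiles are ranks among all protein-coding genes. The classes, counts and covered bases were checked on simulated regions. The CpG split at 0.5 and the TSS of the reference transcript alone were chosen after the data were seen. RefSeq promoter sequences of another build were not used. The work used Python 3.11.15, numpy 2.4.6, numba 0.67.0, biopython 1.88 and matplotlib 3.10.9.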

Additional observations from a re-analysis of the deposited data

How the results depend on the processing

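The count of hormone genes with a TSS inside a region was 1 under all 8 alternatives: a minimum width of 400 or of 1000 bp, joining of regions up to 1000 bp apart, counting by midpoints, 10 or 50 kb from a TSS, TSS of protein-coding transcripts, and the reference TSS alone. For this count the settings of 10 kb, 50 kb and midpoints could change nothing, as they do not bear on a TSS inside a region. Over all protein-coding genes the share under these 8 alternatives ran from 31.3% with the reference TSS alone to 40.3% with joined regions. Of 257 values of 32 results under an alternative, 222 stayed within 1.5 times the reported value and 35 did not, most of them with 10 or 50 kb. Many values were fixed by construction, so this tally does not measure stability. No count of a TSS inside a region or of a region within 2 kb could change with 10 kb, 50 kb or midpoints. The minimum of 400 bp removed nothing at the hormone genes, where the narrowest region was 400 bp wide. The distance set how many regions were counted, by its own construction: the 19 regions became 10 with 10 kb and 34 with 50 kb, and the 47.2 covered kb became 14.05 and 77.6. With regions of at least 1000 bp, a TSS lay inside a region at 3 hormone genes of other tissues, 2 endothelial genes and 1 gene of tissues outside the pancreas. The reference TSS alone left 2 duct genes and 1 stromal gene, and TSS of protein-coding transcripts also left 1 stromal gene. With regions of at least 1000 bp, Sst had 0 regions and Ins1 had 1, so that 6 hormone genes had a region and 2 had one within 2 kb. At this setting 69.8% of all protein-coding genes had a region and 35.7% had a TSS inside one. The share of all genes within 2 kb was not computed at this setting. No paired analysis was possible because the list comes from 1 library, which also left no replicate to leave out. As the depth is unknown, a missing region can lie under the threshold of the list.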
